A study of Mus musculus with 15 samples.

Results

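Libraries of tamoxifen-treated mice deficient in *Mtm1* (Mtm1-/y + TAM, n = 3) were compared with those of untreated wild-type mice (WT, n = 4) in their tibialis anterior transcriptome, to find which expressed genes remained away from the wild-type level in treated mutant muscle and which lay at it. The members of the comparison are 7 of the 15 libraries of the series, taken by their labels, and 15533 of the 30672 genes of the count table, which had enough reads to be tested. Every mouse was a 7-week-old male of strain 129Pas. The mutants (Mtm1-/y) have no functional *Mtm1*, which lies on the X chromosome. Treated mutants, which were given tamoxifen, gave 3 libraries, and the labels state neither its dose nor its schedule. The remaining libraries came from untreated mutants (Mtm1-/y, n = 4), whose values are set beside those of the treated mutants, and from tamoxifen-treated wild type (WT + TAM, n = 4). The WT + TAM libraries entered the choice of tested genes, the scaling and the shared estimate of the spread, but no comparison. Treated mutants differed from WT in genotype and drug at once, so the parts of these cannot be told apart in the comparison. The labels number the libraries of a group without saying whether each came from its own mouse, so p-values measure the spread between these libraries.

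*Mtm1* encodes myotubularin, a phosphatase that removes the phosphate at position 3 from the membrane lipids PI3P and PI(3,5)P2 on endosomes. Its loss causes X-linked myotubular (centronuclear) myopathy, in which muscle fibres are small, nuclei lie centrally, and the T-tubules and sarcoplasmic reticulum that couple excitation to contraction are disorganised. Amphiphysin 2 (*Bin1*) and dynamin 2 (*Dnm2*), whose genes are also mutated in centronuclear myopathies, shape and cut membranes. Tamoxifen is a selective modulator of oestrogen receptors.

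Genes were sorted into 4 classes. A gene was called higher or lower when its p from edgeR's quasi-likelihood test, adjusted by Benjamini-Hochberg across every gene tested, was under 0.05. It was placed at wild-type level when it was not called and the 95% confidence interval of its log2 fold change lay wholly within 1.5-fold in either direction. A gene that met neither condition was undetermined. Of the 15533 genes, 1854 (11.9%) were higher and 1761 (11.3%) were lower in treated mutants than in WT, 5081 (32.7%) lay at wild-type level, and 6837 (44%) were undetermined. Changes past 2-fold were found in 713 of the higher and 502 of the lower genes, and 349 called genes had intervals that stayed within 1.5-fold. For 3520 of the 3615 called genes the 3 treated values did not overlap the 4 WT values, which held for 41.4% of all tested genes. The median half-width of the interval was 0.41 on the log2 scale, and 0.26 among genes with a mean log2 CPM (counts scaled to library size) over 5. Against the same WT libraries, the untreated mutants had 2407 higher (15.5%) and 2320 lower (14.9%) genes, with 5002 at wild-type level. Untreated mutants had 4 libraries and treated mutants 3, and the median half-width for untreated mutants was 0.38. Counts of calls in both mutant groups, here and for the lists below, are therefore no measure of a difference between them. The number called fell to 2190 without treated replicate 2 and rose to 5513 in a fit of the 7 libraries alone, and the lower genes numbered 1101 without treated replicate 3.

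**Figure D1:**
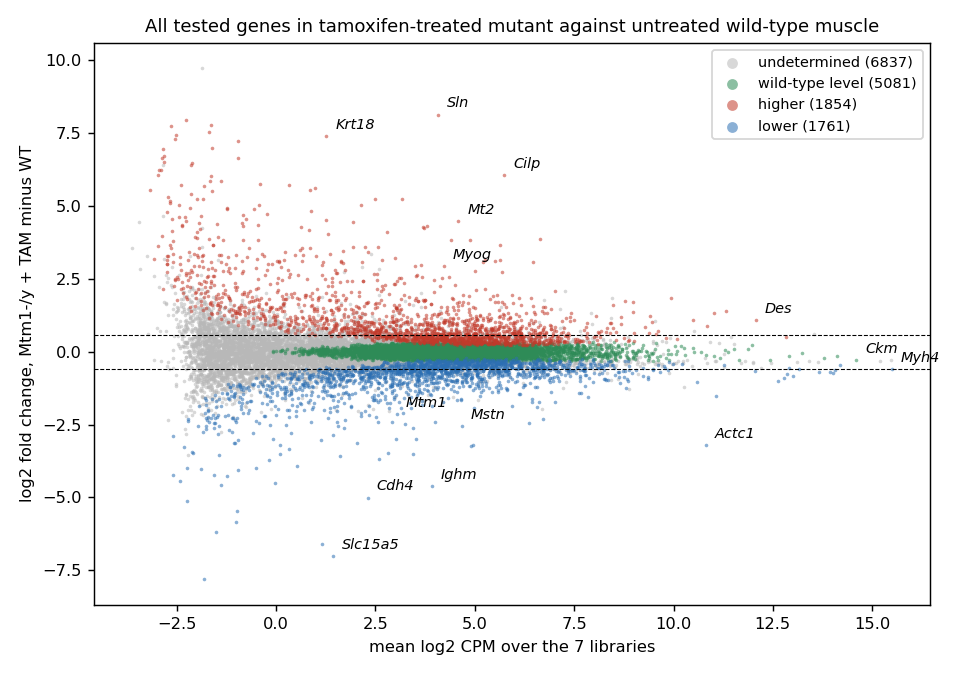
Each point is a tested gene, with its mean log2 CPM over the 7 libraries on the x axis and its log2 fold change in Mtm1-/y + TAM against WT on the y axis, and the dashed lines mark 1.5-fold. The 5081 genes at wild-type level lie between the lines, and of the labelled genes *Sln* is the highest at 8.14 and *Slc15a5* the lowest at -7.02.

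Total counts were 22854090 to 45823277 in the WT and 18042558 to 37079596 in the treated mutant libraries. On the first principal component of the 7 libraries, which held 63% of the variance, WT lay between -39.8 and -35.9 and treated mutants between 49.3 and 52.4. Genes called higher took 5.76% to 6.89% of the counts in WT libraries and 12.1% to 13.4% in treated mutants, beside 10.2% to 13.1% in untreated mutants. Genes called lower took 29.4% to 32.2% in WT and 21% to 22.7% in treated mutants. The classes were assigned from these same WT and treated libraries, so the direction of both shares was set by the calls. Calls became more frequent with expression, from 14.3% in the lowest to 30.4% in the highest of 4 equal bins of genes by mean expression, and the share at wild-type level went from 0.438% to 52.7%. Among the 20 genes most abundant in WT muscle, 10 were lower, 0 were higher, 4 lay at wild-type level and 6 were undetermined. By gene type, 24.8% of 13437 protein-coding genes, 24% of 441 lincRNAs and 3.7% of 594 processed pseudogenes were called.

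*Mtm1* was far below wild type in every mutant library. Its level was 15.2, 15.3, 14.9 and 15.6 CPM in the WT and 3.71, 3.04 and 3.70 CPM in the treated mutant libraries (means 15.3 ± 0.294 and 3.49 ± 0.381 CPM, SD). The groups did not overlap, and the log2 fold change was -2.13 (SE 0.122, edgeR adjusted p = 1.43e-07). Untreated mutants averaged 3.36 CPM.

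Among other enzymes of 3-phosphoinositide metabolism, wild-type level was the most frequent class. Of 20 myotubularins, myotubularin-related proteins, PI 3-kinases and partners listed, 12 lay at wild-type level, among them the close relative *Mtmr1* (0.05), the PI3P-producing kinase *Pik3c3* (0.07), *Pikfyve*, which adds a phosphate to PI3P (0.09), and *Mtmr14* (0.01, all log2 fold changes). The member that was higher was *Vac14*, the scaffold of the PIKfyve complex, at 25 to 30.3 CPM in WT and 43.6 to 49.2 CPM in treated mutants (log2 fold change 0.79, SE 0.135, adjusted p = 0.000914). Besides *Mtm1*, *Mtmr10*, *Mtmr2* and *Mtmr3* were lower, by -0.52, -0.32 and -0.32. The list's median log2 fold change was -0.152, beside -0.00384 for all tested genes. Its 4 lower members became 2 without WT replicate 2 or without treated replicate 2, and 7 without Mtm1-/y replicate 1.

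Genes of membrane remodelling and caveolae differed in both directions. The muscle caveolar and repair genes *Cav3* (0.74), *Cavin4* (0.73), *Dysf* (0.69), *Pacsin3* (0.68) and *Ehd4* (0.53) were higher together with *Bin1* and *Dnm2*, so that 7 of 20 listed genes were higher and 6 were lower. *Bin1* stood at 608, 566, 545 and 519 CPM in WT and 869, 945 and 784 CPM in treated mutants (log2 fold change 0.63, SE 0.145, adjusted p = 0.00575). *Dnm2* stood at 55 to 57.7 CPM in WT and 67.6 to 75.7 CPM in treated mutants (0.32, SE 0.0834, adjusted p = 0.0124), and neither gene's groups overlapped. The *Dnm2* call was lost in 2 of 18 alternative settings. The lower members were *Cav1*, *Cav2* and *Cavin2*, which are abundant in endothelium and fat, with *Ehd2*, *Amph* and *Dnm3* (-0.72 to -1.32). *Cavin1*, needed for caveolae of all kinds, was at wild-type level (0.02). Without treated replicate 2, 3 members were higher.

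Among genes whose mean log2 CPM reached 1, the largest increases included genes with very low levels in WT muscle. *Sln*, encoding sarcolipin, a small inhibitor of the calcium pump of the sarcoplasmic reticulum, had 1.43, 1.58, 1.46 and 1.38 CPM in WT and 389, 392 and 452 CPM in treated mutants. Its log2 fold change was 8.14 (SE 0.593, adjusted p = 1.23e-05), and the untreated mutants ranged from 303 to 1750 CPM. *Krt18*, an epithelial keratin, rose from at most 0.499 CPM in WT to 66.8, 19.5 and 46.8 CPM. *Cilp*, a secreted matrix protein of cartilage, rose from 8.05 to 10.4 CPM in WT to 485, 678 and 608 CPM (6.05, SE 0.611, adjusted p = 0.000108). *Rrad*, a small GTPase that restrains calcium channels, *S100a4*, a calcium-binding protein, and the metallothioneins *Mt3* and *Mt2* had log2 fold changes of 5.25, 5.24, 5.03 and 4.48, each without overlap. *Igfbp2*, an insulin-like growth factor binding protein, did not reach that mean log2 CPM. It was at 0 in 2 WT libraries and reached 0.133 CPM at most in the others, against 8.06, 1.54 and 6.34 CPM in treated mutants. The lincRNA gene *Gm28653* had a log2 fold change of 4.53. The lowest p-values among higher genes belonged to *Cpne2*, a calcium-dependent membrane-binding protein (4.33, adjusted p = 1.43e-07), the antisense gene *Srrm4os* (5.61), the developmental transcription factor *Sox11* (5.72), the transporter gene *Mfsd7a* (3.20) and *Tnfrsf23*, a decoy receptor (2.95).

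Among genes of the same minimum level, *Slc15a5* and *Cdh4* had some of the largest decreases. *Slc15a5*, a solute carrier, had 37.0, 20.8, 13.0 and 12.9 CPM in WT and 0.212, 0.265 and 0.0252 CPM in treated mutants (-7.02, SE 1.57, adjusted p = 0.00338). *Cdh4*, a classical cadherin, had 17.6 to 23.7 CPM in WT and 0.529 to 1.01 CPM in treated mutants (-5.01, SE 0.431, adjusted p = 1.23e-05). Every WT library lay above every treated library for both genes. *Nt5c1a*, a cytosolic nucleotidase of muscle, *Adamts8*, a secreted protease, and the uncharacterised *C130080G10Rik* and *B230312C02Rik* were lower by log2 fold changes of -3.58, -3.47, -6.59 and -3.51. *Nrp1*, a receptor for semaphorins and VEGF (-1.52), *Ybx2*, an RNA-binding protein (-2.61), and *0610040J01Rik* (-3.03) were among the lower genes with the smallest p-values. Of genes that reached a mean of 100 CPM in either group and changed more than 4-fold, 13 were higher and 3 were lower. Those not yet named, singled out after their values were seen, were the kinase gene *Sbk2* (3.87), the death receptor *Eda2r* (3.84), *Ctxn3* (3.66), the tubulin *Tubb6* (3.16), the stretch-responsive *Ankrd1* (3.13), the M-band protein *Myom3* (3.11), the cell cycle inhibitor *Cdkn1a* (3.07), *Gadd45a* (3.07), *Fxyd6* (2.75) and *Mustn1* (2.09) among the higher, and *Nrep* (-2.33), *Smox* (-2.45) and *Actc1* (-3.21) among the lower.

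**Figure D2:**
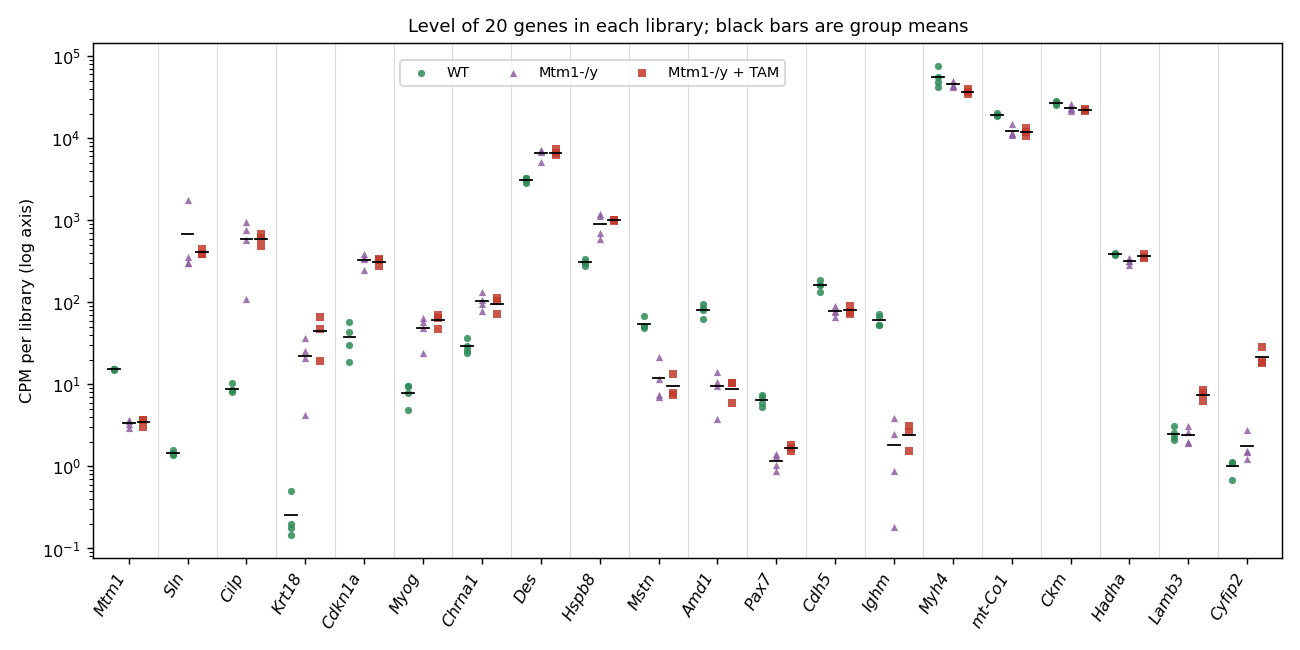
CPM of 20 genes on a log axis in each WT, untreated mutant (Mtm1-/y) and treated mutant (Mtm1-/y + TAM) library, with group means as black bars. Treated mutant libraries sit apart from WT for most genes, overlap with WT for *Hadha*, and stand above the other groups for *Lamb3* (6.25 to 8.53 CPM) and *Cyfip2* (18.4 to 28.2 CPM).

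Genes of the neuromuscular junction and of the response to denervation were called more often higher than lower. Of 24 listed genes, 10 were higher, 3 were lower, none lay at wild-type level and 11 were undetermined, with a median log2 fold change of 0.655; in untreated mutants 14 were higher, 4 were lower and the median was 1.063. All 5 tested subunit genes of the muscle acetylcholine receptor were higher, namely *Chrnd* (2.34), *Chrna1* (1.71), the fetal subunit *Chrng* (1.21), *Chrnb1* (1.09) and the adult subunit *Chrne* (0.95). *Chrna1* had 36.8, 24.3, 26.2 and 29.2 CPM in WT and 112, 103 and 72.5 CPM in treated mutants (SE 0.212, adjusted p = 8.68e-05), with no overlap. *Runx1*, a transcription factor induced by denervation, averaged 1.60 ± 0.239 CPM in WT and 19.6 ± 3.90 CPM in treated mutants (3.60, SE 0.362, adjusted p = 2.31e-05). The class II deacetylase *Hdac4* (1.03), the growth arrest gene *Gadd45a* and *Colq*, which anchors acetylcholinesterase (1.07), were also higher, and *Rapsn*, which clusters the receptors, was higher by 0.26. *Fgfbp1* (-4.51), *Dach2* (-2.79) and the adult sodium channel *Scn4a* (-0.74) were lower, and 5 were lower without Mtm1-/y replicate 1.

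Developmental muscle genes were also called mainly higher. Of 22 listed, 13 were higher and 3 lower, with a median of 1.18, and 1 was lower without treated replicate 2. *Myog*, encoding the differentiation factor myogenin, had 4.90, 9.44, 7.92 and 9.53 CPM in WT and 64.8, 70.2 and 47.3 CPM in treated mutants (2.94, SE 0.427, adjusted p = 0.00057). Its relatives *Myf6* (1.32) and *Myod1* (0.75) were higher too, though a *Myod1* value of treated mutants fell within the WT range. Embryonic myosin *Myh3* rose from 3.85 to 6.04 CPM in WT to 35.7, 53.0 and 35.5 CPM (2.97, SE 0.378, adjusted p = 0.000199), and the neonatal *Myh8* (1.24), the embryonic light chain *Myl4* (2.55), cardiac-type troponin *Tnnt2* (1.70), the adhesion molecule *Ncam1* (2.55), the imprinted *H19* (1.31) and the fusion genes *Mymk* (1.77) and *Mymx* were higher. Cardiac actin *Actc1* went the other way, from 8602, 3788, 3152 and 4696 CPM in WT to 393, 848 and 397 CPM (-3.21, SE 0.959, adjusted p = 0.0497), and *Pax7*, the satellite cell marker, was lower by -1.90. *Cdh15*, M-cadherin, was at wild-type level (0.20). The call for *Actc1* was lost in 9 of 18 alternative settings.

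The promoters of receptor subunit and *Myog* genes are known for E-boxes, the sites of the MyoD family to which myogenin belongs. Of 6 higher genes whose 200 bases before the start were searched, the 4 that held 2 or more matches to CANNTG are shown to make the pattern visible, a choice made after the matches were seen. The pattern CANNTG reads alike on both strands, and its matches are in capitals (RefSeq promoters, GRCm38.p6, written 5′ to 3′ along the gene).
*Chrna1*, chr2:73580339-73580538, minus strand: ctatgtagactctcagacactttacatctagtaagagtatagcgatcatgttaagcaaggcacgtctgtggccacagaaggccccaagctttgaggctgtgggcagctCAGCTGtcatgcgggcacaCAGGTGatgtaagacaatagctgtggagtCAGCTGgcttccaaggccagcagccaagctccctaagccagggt
*Chrnb1*, chr11:69795938-69796137, minus strand: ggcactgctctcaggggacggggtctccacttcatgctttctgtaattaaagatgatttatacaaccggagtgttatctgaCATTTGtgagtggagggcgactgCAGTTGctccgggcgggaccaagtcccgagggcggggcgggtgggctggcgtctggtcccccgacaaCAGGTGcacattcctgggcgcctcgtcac
*Chrng*, chr1:87205611-87205810, plus strand: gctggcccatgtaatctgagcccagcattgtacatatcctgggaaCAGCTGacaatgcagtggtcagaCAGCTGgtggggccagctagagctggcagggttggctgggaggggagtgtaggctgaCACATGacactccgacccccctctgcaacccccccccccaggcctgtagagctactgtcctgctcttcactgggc
*Myog*, chr1:134289804-134290003, plus strand: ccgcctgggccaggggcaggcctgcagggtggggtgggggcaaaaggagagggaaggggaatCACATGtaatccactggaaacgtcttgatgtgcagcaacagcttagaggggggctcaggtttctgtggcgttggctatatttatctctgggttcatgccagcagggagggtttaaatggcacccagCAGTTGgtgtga
The 3 receptor promoters shown held 3 matches each and that of *Myog* held 2, while the promoters of *Chrne* and *Myh3*, not shown, held 1 each. Of 32851 promoters, 58.2% held at least 1 match in the same window and 7.49% held 3 or more, and a match is a description of letters only.

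In the contractile apparatus, fast-fibre and shared sarcomere genes were divided between lower and wild-type level. Of 24 listed genes, 5 were lower, 2 were higher, 10 lay at wild-type level and 7 were undetermined. The fastest myosin, *Myh4*, the most abundant gene of WT muscle, had 75773, 56014, 42202 and 49042 CPM in WT and 39705, 36455 and 34978 CPM in treated mutants (-0.59, SE 0.179, adjusted p = 0.0285). *Mybpc2* (-0.83), *Tpm1* (-0.62), *Actn3* (-0.61) and *Tnnt3* (-0.45), all parts of fast fibres or of every sarcomere, were lower as well. The lower calls fell to 3, 1 and 2 without treated replicate 1, 2 or 3, and numbered 8 by DESeq2 and in the fit of the 7 libraries alone. Those of *Myh4* and *Mybpc2* were lost in 5 and 4 of 18 alternative settings. Actinin 2, *Actn2*, was higher (0.88), as was the Z-disc protein *Myoz3* (0.96), and 1 was higher without treated replicate 3. *Myh1* had a value of 0.60 (adjusted p = 0.0819) and *Acta1* of -0.30 (adjusted p = 0.186), and both were undetermined.

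Slow-fibre genes had the highest median of the lists, 1.271. Of the 16 listed, 3 were higher, 1 was lower and 12 were undetermined, beside 11.9% higher and 11.3% lower among all tested genes. *Tnni1*, slow troponin I, was higher at 14.6, 41.8 and 19.2 CPM against 1.58 to 2.52 CPM in WT (3.57, SE 1.05, adjusted p = 0.03), and *Myl6b* (1.59) and *Myoz2* (1.53) were higher too. The slow light chain *Myl3* was lower (-2.47). In 7 of 18 alternative settings, among them those without any single WT library, *Tnni1* was not called. No gene was higher without treated replicate 2, and 9 were higher without WT + TAM replicate 1. Slow myosin *Myh7* had 4.61, 26.0 and 37.7 CPM in treated mutants and 1.46 to 2.80 CPM in WT, and was undetermined (3.36, SE 1.58, adjusted p = 0.149). Treated replicate 1 was the lowest of the 3 for *Myh7*, *Tnni1*, *Tnnc1*, *Tnnt1* and *Csrp3*. In untreated mutants the median of the list was 0.716, with *Myh7* at 3.09 to 4.66 CPM.

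Of 27 genes of excitation-contraction coupling and calcium stores, 5 were higher, 3 were lower, 6 lay at wild-type level and 13 were undetermined. Among all tested genes 11.9% were higher and 11.3% were lower, so the number lower was near that share. Besides *Sln*, the calcium channel subunits *Cacng1* (672, 683 and 678 CPM against 197 to 239 CPM in WT, 1.61, SE 0.146, adjusted p = 6.86e-06) and *Cacnb1* (0.80), the triad protein *Jsrp1* (0.63) and the store-operated channel *Orai1* (0.50) were higher. *Cacna2d1* (-0.67), *Jph1*, which ties T-tubules to the sarcoplasmic reticulum (-0.47), and sarcalumenin, *Srl* (-0.46), were lower, and the number lower was 1 without treated replicate 2 and 5 without Mtm1-/y replicate 1 or WT + TAM replicate 1. The channel pore *Cacna1s* (0.14), *Stac3* (-0.14), *Stim1* (-0.12) and *Tmem38a* (-0.01) were at wild-type level. The calcium release channel *Ryr1*, at 3965, 3428 and 3280 CPM against 3828 to 4868 CPM in WT, was undetermined (-0.35, adjusted p = 0.107), as was the calcium buffer *Casq1* (-0.58, adjusted p = 0.119).

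Genes linked to muscle wasting included strongly increased members. Of 24 listed genes, 9 were higher, 1 was lower, 5 lay at wild-type level and 9 were undetermined, with a median of 0.617; in untreated mutants 18 were higher and the median was 1.26. *Cdkn1a* had 18.7, 43.9, 57.4 and 29.8 CPM in WT and 333, 332 and 277 CPM in treated mutants (SE 0.449, adjusted p = 0.000648). *Eda2r* rose from 6.4 to 10.9 CPM in WT to 162, 128 and 119 CPM, and the metallothioneins *Mt1* (2.75) and *Mt2*, *Depp1* (1.84), the autophagy receptor *Sqstm1* (0.65) and *Gabarapl1* (0.60) were higher. The ubiquitin ligases *Trim63* and *Fbxo32*, used as markers of atrophy, had values of 1.14 (adjusted p = 0.0579) and 1.32 (adjusted p = 0.0583) without overlap and were undetermined. They were called in 6 and 5 of 18 alternative settings, respectively. *Foxo1* stood at 25.8, 28.9 and 25.8 CPM in treated mutants, 18.7 to 22.5 CPM in WT and 66.3 CPM on average in untreated mutants. It was undetermined against WT, and its difference between the mutant groups was not called. *Nedd4* was at wild-type level (0.24) and was called in untreated mutants (0.32); the difference between the mutant groups was not called (adjusted p = 0.92).

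In growth factor signalling, *Mstn*, the muscle-restraining myostatin, had 68.3, 52.0, 51.4 and 48.9 CPM in WT and 13.2, 7.44 and 7.96 CPM in treated mutants (-2.55, SE 0.437, adjusted p = 0.00234). Its antagonist *Fst*, follistatin, had 1.30 to 2.04 CPM in WT and 20, 13.1 and 11.8 CPM in treated mutants (3.06, SE 0.282, adjusted p = 1.09e-05). *Igf1* was lower (-1.68), *Igfbp6* and *Akt2* were higher (1.02 and 0.53), and 18 of the 28 listed genes were undetermined. The number lower was 1 without WT replicate 2 or treated replicate 2 or 3, 6 without Mtm1-/y replicate 1 and 5 without WT + TAM replicate 1. *Igf2r*, *Akt1*, *Smad2* and *Tgfbr1* were at wild-type level.

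Of 35 proteasome subunits, which degrade proteins marked by ubiquitin, 17 were higher, none was lower by the edgeR test (1 at an unadjusted p under 0.05, 0 by DESeq2 and limma-voom) 13 lay at wild-type level and 5 were undetermined, with increases between 0.32 for *Psmd7* and 0.74 for *Psmb4*, which had 94.6 to 122 CPM in WT and 164, 176 and 172 CPM in treated mutants (SE 0.13, adjusted p = 0.00102). Summed over the 35 genes, treated mutant libraries stood above all WT libraries. Of 27 chaperone genes, 10 were higher, mainly small heat shock proteins that guard the Z-disc. *Hspb8* had 303, 336, 314 and 275 CPM in WT and 972, 1021 and 1006 CPM in treated mutants (1.70, SE 0.19, adjusted p = 2.89e-05), and *Hspb7* (1.86), *Hspb1* (1.59), *Cryab* (1.21), *Hspa1a* (1.91), *Hspa1b* (1.88) and the co-chaperone *Bag3* (0.71) were higher. Mitochondrial *Hspd1* was lower (-0.53), a call lost without treated replicate 3, and 12 chaperones, among them *Hspa8* (0.12) and the endoplasmic reticulum proteins *Hspa5* (-0.12), *Hsp90b1* (-0.07) and *Canx* (0.03), lay at wild-type level. *Hspa1a* and *Hspa1b* are near-identical copies, so the division of reads between them is uncertain.

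Autophagy and lysosome genes divided into 13 higher, 3 lower, 19 at wild-type level and 4 undetermined, and without treated replicate 2 the number higher was 8. The number lower was at most 1 without WT replicate 1, 2 or 4 or any treated replicate. *Map1lc3a* (1.06), *Gabarap* (0.68), the proton pump subunit *Atp6v1a* (0.81) and the regulator *Tfeb* (0.47) were higher, *Optn*, *Ulk2* and *Atg9a* were lower, and *Becn1*, *Atg5*, *Lamp2* and *Ctsd* were at wild-type level. Cytosolic ribosomal protein genes had 23 of 75 higher and 1, *Rpl15* (-0.38), lower, with a median of 0.332, and 0 were lower without treated replicate 2. Many of these have processed copies in the genome that share reads, and the number higher was 12 without WT replicate 2, 15 without WT replicate 4, and 15, 14 and 13 without treated replicate 1, 2 or 3. Of 24 antioxidant genes 7 were higher, 1 was lower and 11 were at wild-type level. The selenoprotein glutathione peroxidases *Gpx1* (43.9, 42.3, 52.0 and 41.8 CPM in WT against 103, 125 and 107 CPM, 1.31, SE 0.129, adjusted p = 1.23e-05) and *Gpx4* (0.74) were higher, while the mitochondrial superoxide dismutase *Sod2* was lower (251 to 295 CPM in WT against 159 to 180 CPM, -0.66, SE 0.146, adjusted p = 0.00549).

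Filament genes differed in both directions. *Des*, encoding desmin, which links Z-discs, had 2881, 3278, 3308 and 3044 CPM in WT and 6193, 7319 and 6530 CPM in treated mutants (1.09, SE 0.133, adjusted p = 5.86e-05). The lamin gene *Lmna* (1.41), the desmin partner *Sync* (0.80), nestin *Nes* (1.15) and *Tubb6* were higher, and *Flna* (-0.84), *Lmnb1* (-0.83), *Actg1* (-0.62), *Tmsb4x* (-0.56) and *Tuba4a* (-0.46) were lower, a number that was 3 without WT replicate 2 or 3 or treated replicate 1 or 3. In the basement membrane and costamere, which hold the fibre to its matrix, the integrins *Itgb1* (0.67), *Itga7* (0.56) and *Itga5* (0.45) were higher, and *Itga6* (-1.37) and the collagen IV genes *Col4a1* (-1.25) and *Col4a2* (-0.97) were lower. In that list of 30 genes 5 were higher, 7 were lower, 10 lay at wild-type level and 8 were undetermined. Across all tested genes 11.9% were higher and 11.3% were lower. The number higher in the list was 3 without WT replicate 2 or 3 or treated replicate 2. Of the dystrophin complex, *Dmd* (0.16), *Dag1* (-0.03), *Sgca* (0.04), *Sgcb* (-0.04) and *Utrn* (0.13) were at wild-type level and *Sgcd* was higher (0.68).

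Of the respiratory chain, which is encoded in both the nuclear and the mitochondrial genome, all 7 tested genes of the mitochondrial genome were lower, by -0.69 for *mt-Co1* to -1.01 for *mt-Nd5*, and *mt-Co1* had 19312, 20565, 18656 and 19140 CPM in WT and 13271, 10753 and 11984 CPM in treated mutants (SE 0.181, adjusted p = 0.0135). Of these 7 genes, 5 were lower without treated replicate 2 or without treated replicate 3. Of 81 nuclear-encoded subunits, 49 were at wild-type level, 4 were higher, 2 were lower and 26 were undetermined, with a median of -0.034. *Cox4i1*, for example, had 895 to 1014 CPM in WT and 862 to 927 CPM in treated mutants (-0.06, 95% interval -0.40 to 0.27). The lower nuclear genes were *Sdha* (-0.48) and *Cox4i2* (-0.95). Summed over the 81 genes, every treated mutant library (24900 to 27020 CPM) stood below every WT library (28000 to 30030 CPM). In untreated mutants 12 of the nuclear genes were lower and the median was -0.121. The number of higher nuclear genes was 2 without WT replicate 2, WT replicate 4 or treated replicate 2 and 1 without treated replicate 3. It was 7 without Mtm1-/y replicate 1 or WT + TAM replicate 1. The number lower was 0 without WT replicate 3 or 4 or any treated replicate and 1 without WT replicate 1 or 2. It was 4 without Mtm1-/y replicate 1 and 11 without WT + TAM replicate 1. In the fit of the 7 libraries alone 14 nuclear genes were higher, 16 were lower and 48 lay at wild-type level. Of the other mitochondrial genes listed, 5 never exceeded 11 counts in a library and were not tested.

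In the citric acid cycle and mitochondrial biogenesis 3 of 30 genes were lower (*Suclg1*, *Opa1*, *Pdha1*), 1 was higher, and 10, among them *Tfam*, *Ogdh* and *Mfn2*, lay at wild-type level, beside 11.3% of all tested genes that were lower. *Twnk*, the mitochondrial DNA helicase, was that higher gene, at 39.5, 44.2 and 41.2 CPM against 29.7 to 33.3 CPM in WT (0.39, SE 0.125, adjusted p = 0.0325), whereas untreated mutants were lower than WT (-0.33). The difference between the mutant groups was not called (adjusted p = 0.16), and the call for *Twnk* was lost in 7 of 18 alternative settings, among them those without any single treated library. In fatty acid use *Lpl*, lipoprotein lipase (-1.05, lost in 3 of 18 alternative settings), *Eci1* and *Acadm* were lower. *Plin2* was higher (0.56, lost without WT replicate 2 or treated replicate 1). At wild-type level lay 12 of 32 genes, such as *Hadha* (352 to 392 CPM against 383 to 400 CPM in WT, -0.09), *Hadhb* and *Cpt2*. The lower genes of the citric acid cycle list numbered 1 without treated replicate 2, 7 without Mtm1-/y replicate 1 and 9 without WT + TAM replicate 1. Those of the fatty acid list numbered 0 without treated replicate 2 and 7 without Mtm1-/y replicate 1. In the fit of the 7 libraries alone, 18 genes of the citric acid cycle list and 10 of the fatty acid list were lower. Glycogen and glycolysis genes had 7 of 30 lower, including the phosphorylase *Pygm* (-0.55), the lactate exporter *Slc16a3* (-0.67) and *Pfkfb1* (-0.80). The number lower was 4 without WT replicate 1, 2 or 4 or treated replicate 1 or 3 and 1 without treated replicate 2. It was 9 by DESeq2, 10 without Mtm1-/y replicate 1 and 15 in the fit of the 7 libraries alone. *Hk1* was higher (0.69). The master regulator *Ppargc1a* was undetermined (-0.81, adjusted p = 0.117).

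**Figure D3:**
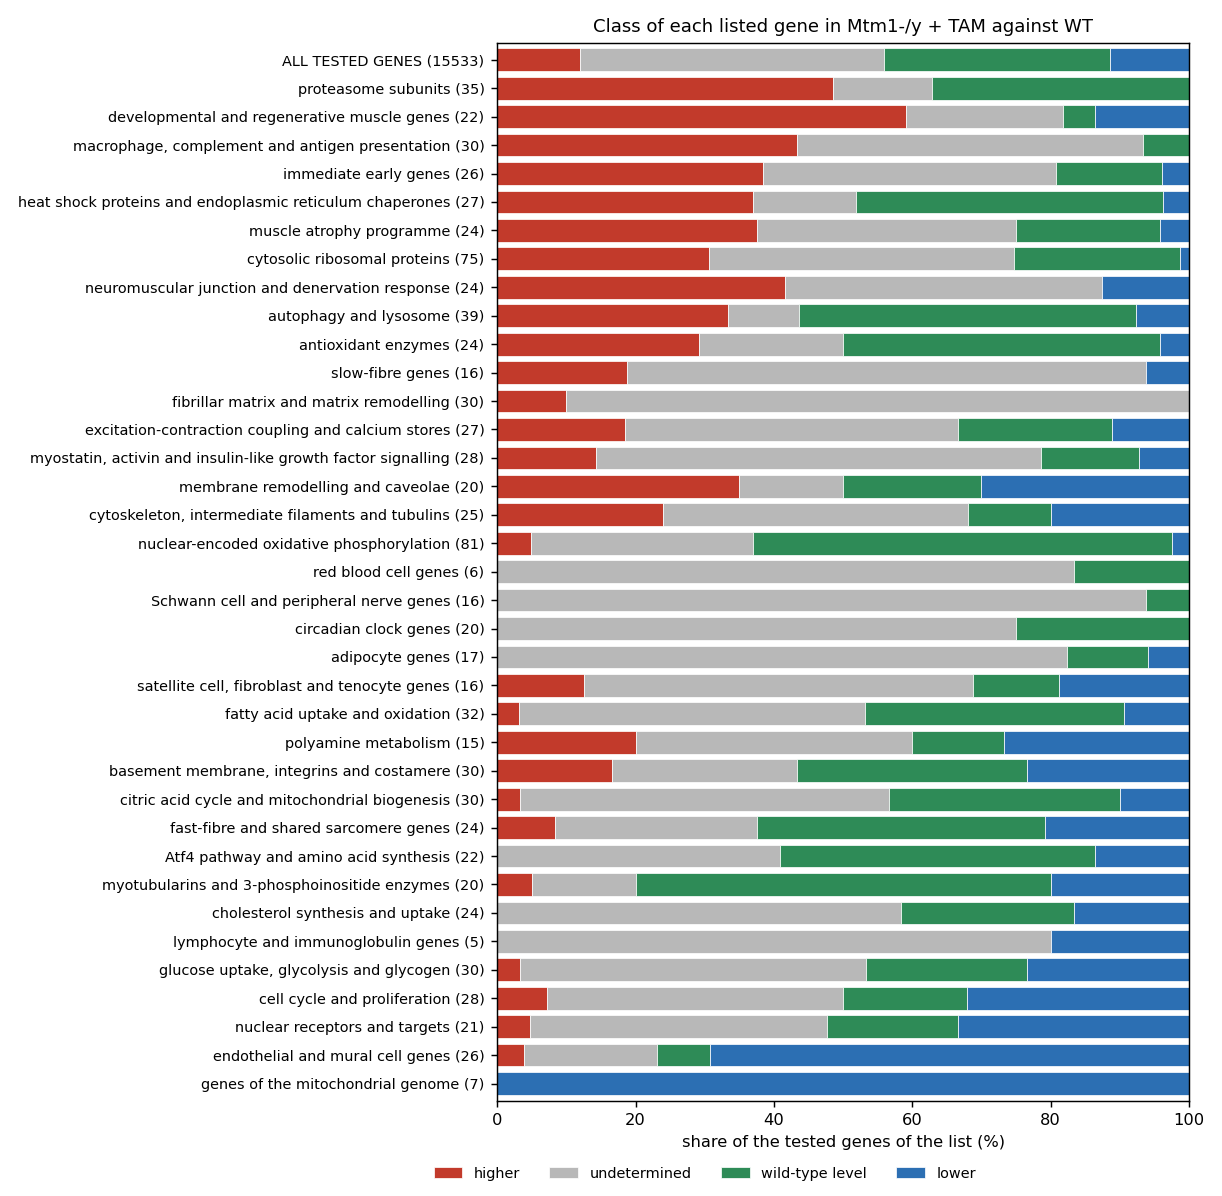
Bars give the share of each list's tested genes (number in brackets) that was higher, undetermined, at wild-type level or lower in Mtm1-/y + TAM against WT, ordered by the share higher minus the share lower, with all tested genes on top. Proteasome subunits (17 of 35 higher) and the mitochondrial genome (7 of 7 lower) stand at the ends.

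Genes that mark other cells of the muscle also differed, and in whole tissue fewer cells of a type and less RNA per cell cannot be told apart. Endothelial and mural cell genes were mainly lower, with 18 of 26 lower, 1 higher and a median of -0.759. *Cdh5*, VE-cadherin, had 134, 164, 163 and 189 CPM in WT and 71.8, 76.3 and 91.2 CPM in treated mutants (-1.02, SE 0.182, adjusted p = 0.00141), and *Pecam1* (-0.67), the VEGF receptor *Kdr* (-1.47), *Tek* (-0.79) and the ligands *Vegfa* (-1.02) and *Apln* (-2.26) were lower. The pericyte gene *Cspg4* was higher (0.79), a call lost in 6 of 18 alternative settings, and *Plvap* and *Ramp2* were at wild-type level. The lower calls were 10 without treated replicate 1 and 11 without treated replicate 2. Those of *Vegfa* and *Apln* were lost in 2 and 3 of 18 alternative settings.

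Macrophage, complement and antigen presentation genes had 13 of 30 higher, none lower by the edgeR test (0 at an unadjusted p under 0.05 and 0 by DESeq2 and limma-voom) and a median of 1.229. *Cd74* had 12.3, 9.64, 20.6 and 23.4 CPM in WT and 43.2, 66.8 and 49.9 CPM in treated mutants (1.70, SE 0.461, adjusted p = 0.0183), and *H2-Ab1* (1.86), *Lyz2* (1.55), *Ctss* (1.92), *Lgals3* (2.25) and *Gpnmb* (2.48) were higher. The defining markers *Adgre1* (1.38), *Cd68* (1.38) and *Csf1r* (0.99) were undetermined, and the broadly expressed *H2-K1* and *H2-D1* lay at wild-type level. Treated replicate 2 was the highest for *Cd74*, *H2-Ab1* and *Lyz2*, and 6 genes were higher without it. Among lymphocyte genes only 5 of 15 were tested, and *Ighm*, the IgM heavy chain, fell from 53.1, 71.6, 52.4 and 65.4 CPM in WT to 1.54, 2.59 and 3.10 CPM (-4.61, SE 0.644, adjusted p = 0.000971). The B cell marker *Cd79a* and the T cell marker *Cd3e* were below the filter in all groups, and *Igkc*, *Jchain*, *Ighd* and *Cd79b* were undetermined.

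Of the satellite cell markers, *Pax7* stood at 5.31, 7.39, 5.89 and 6.92 CPM in WT and 1.54, 1.69 and 1.84 CPM in treated mutants (SE 0.228, adjusted p = 7.5e-05), and *Calcr* (-4.56) and *Vcam1* (-1.45) were lower. The fibroblast marker *Pdgfra* (1.33) and the tendon factor *Scx* (2.38) were higher. The tendon cell marker *Tnmd* was undetermined (0.47), at 2.41 to 3.14 CPM in WT and 1.06 to 9.06 CPM in treated mutants. Of the 16 genes in this list 2 were higher, 3 were lower, 2 lay at wild-type level and 9 were undetermined. These counts stand beside 11.9% higher and 11.3% lower among all tested genes. The list's median was 0.054, or -0.361 without treated replicate 2 and 0.293 without treated replicate 1. Among fibrillar matrix genes 27 of 30 were undetermined. *Col1a1* had 252 to 282 CPM in WT and 139, 432 and 186 CPM in treated mutants (-0.09, SE 0.844, adjusted p = 0.958), and treated replicate 2 was the highest. *Timp1* (3.07), *Ccn2* (1.83) and *Eln* (0.84) were higher, so the share higher was near the 11.9% of all tested genes. In this list 1 gene was higher without treated replicate 2 and 5 without WT + TAM replicate 1. Of the adipocyte list 1 of 17 genes was called (*Acly*, -0.52), of the Schwann cell list 0 of 16 and of the red blood cell list 0 of 6, by the edgeR test. DESeq2 and limma-voom called 0 in these last lists, where 3 and 1 genes had an unadjusted p under 0.05. Of the tissue markers, *Alb* was higher (2.14 to 2.85 CPM in WT, 4.19 to 10.1 CPM in treated mutants), the heart myosin *Myh6* was undetermined, and the skin keratin *Krt5* had at most 1 count in a library.

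**Figure D4:**
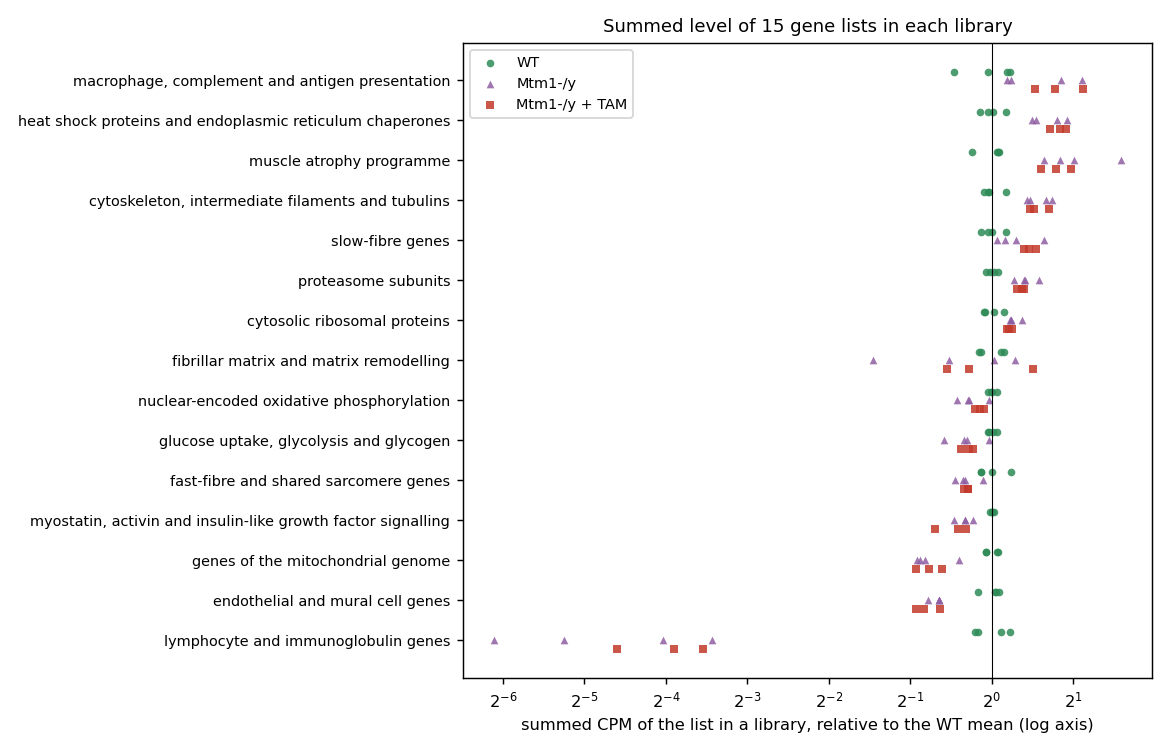
Summed CPM of the tested genes of 15 lists in each library, divided by the WT mean and drawn on a log axis. Treated mutants lie below all WT libraries for the mitochondrial genome and the nuclear oxidative phosphorylation, glycolysis, fast-fibre, myostatin, lymphocyte and endothelial lists. They lie above all WT libraries for the macrophage, chaperone, atrophy, proteasome, ribosomal protein, cytoskeleton and slow-fibre lists. For the fibrillar matrix they lie on both sides of WT.

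In polyamine metabolism the synthetic enzyme *Amd1* and the spermine oxidase *Smox* were far lower. *Amd1* had 95.3, 86.1, 79.8 and 62.4 CPM in WT and 10.3, 10.4 and 5.92 CPM in treated mutants (-3.20, SE 0.344, adjusted p = 0.000108), and *Smox* had 123 to 297 CPM in WT and 26.1 to 37.9 CPM in treated mutants (SE 0.408, adjusted p = 0.00199). *Amd2*, a near-identical copy of *Amd1*, was lower too, with an uncertain share of reads, as was *Azin2*, an inhibitor of antizyme. *Sat1* (0.70), *Sat2* (0.72) and *Oaz1* (0.57), of polyamine export and turnover, were higher, *Srm* and *Sms* lay at wild-type level, and *Odc1* was undetermined (0.27, adjusted p = 0.395).

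Immediate early genes had 10 of 26 higher, 1 lower and a median of 0.762, beside 15 higher and 1.025 in untreated mutants. *Junb* had 3.52, 3.36, 4.03 and 5.81 CPM in WT and 27.7, 22.4 and 22.3 CPM in treated mutants (2.52, SE 0.239, adjusted p = 1.23e-05), and *Egr1* was higher by 1.89, whereas *Nr4a1* was lower (-0.62, lost in 6 of 18 alternative settings). *Dusp1*, *Klf2*, *Klf6* and *Fosl2* lay at wild-type level, and *Dusp1* had 38.1 to 51.9 CPM in treated mutants, 41.7 to 50.5 CPM in WT and 76.0 CPM on average in untreated mutants. *Dusp1* was not called between treated and untreated mutants. The number higher was 6 without treated replicate 1. None of 20 clock genes was called by the edgeR test, with 3 at an unadjusted p under 0.05, 1 call by DESeq2 and 0 by limma-voom, and 1 was lower without WT replicate 1, treated replicate 1 or WT + TAM replicate 1. Of 28 cell cycle genes 9 were lower, among them *Top2a* (-2.40), *Aurkb* (-2.75) and the cyclin *Ccnd2* (-1.36), and 2 were higher, *Cdkn1a* and *Rb1* (0.77), or 1 without WT replicate 3 or treated replicate 1. The number lower was 4 without WT replicate 3 or 4, 5 without treated replicate 1 and 2 without treated replicate 3.

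A list of 21 receptors of steroid hormones, their cofactors and targets had 7 genes lower, or 4 without treated replicate 2. The oestrogen receptor gene *Esr1* had 26.1, 28.9, 24.6 and 29.2 CPM in WT and 18.6, 16.4 and 17.5 CPM in treated mutants (-0.64, SE 0.151, adjusted p = 0.00756), and the glucocorticoid receptor *Nr3c1* (-0.41), the G protein-coupled oestrogen receptor *Gper1* (-0.72) and the cofactors *Ncoa1* (-0.75) and *Ncor1* (-0.55) were lower. *Xbp1*, a factor of the unfolded protein response, was higher (0.99). *Vegfa*, described above, is also in the list. The oestrogen target *Greb1* was undetermined (-0.13, adjusted p = 0.774), at 1.64 to 1.96 CPM against 1.62 to 2.51 CPM in WT and 0.994 CPM on average in untreated mutants. Between the mutant groups *Greb1* was not called. *Pgr* and *Esr2* were below the count filter. Of 24 cholesterol genes *Hmgcs1*, *Sc5d*, *Dhcr7* and *Stard4* were lower (-0.38 to -0.75), none was higher by the edgeR test (2 at an unadjusted p under 0.05, 0 by DESeq2 and limma-voom, 2 without WT + TAM replicate 1), and *Srebf2* lay at wild-type level (0.26). In the Atf4 pathway of amino acid stress 10 of 22 genes, *Atf4* among them (0.25), lay at wild-type level. *Vldlr*, *Ddit3* and *Aldh18a1* were lower, a number that was 1 without WT replicate 2 or treated replicate 3. The call for *Aldh18a1* was lost in 4 of 18 alternative settings. Of all tested genes, 32.7% lay at wild-type level and 11.3% were lower.

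Of the 20 and the 100 genes most abundant in WT muscle, 20% and 29% lay at wild-type level, beside 32.7% of all tested genes. Across the lists, 249 of 919 tested genes lay at wild-type level, beside 172 higher, 117 lower and 381 undetermined. The share was 49 of 81 for the nuclear respiratory chain, 12 of 20 for the phosphoinositide enzymes and 19 of 39 for autophagy, beside 52.7% of the bin with the highest expression. Among the 10 most abundant genes at wild-type level were *Ckm*, *Aldoa*, *Mylpf*, *Tnnc2*, *Tnni2*, *Pfkm*, *Myom2*, *Mb* and *Myl1*, which serve the phosphagen store, glycolysis, fast myosin and troponin, the M-band and oxygen storage. *Tnnc2* had 10809, 9272, 9885 and 9062 CPM in WT and 8485, 10021 and 9775 CPM in treated mutants, with an interval of -0.40 to 0.30. *Mb*, myoglobin, had 3017 to 4204 CPM in WT, 3586 to 4206 CPM in treated mutants and 2894 CPM on average in untreated mutants. It was not called between the mutant groups. *Ckm* and *Pfkm*, though within 1.5-fold, had intervals below 0 (-0.56 to -0.02 and -0.53 to -0.03).

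**Figure D5:**
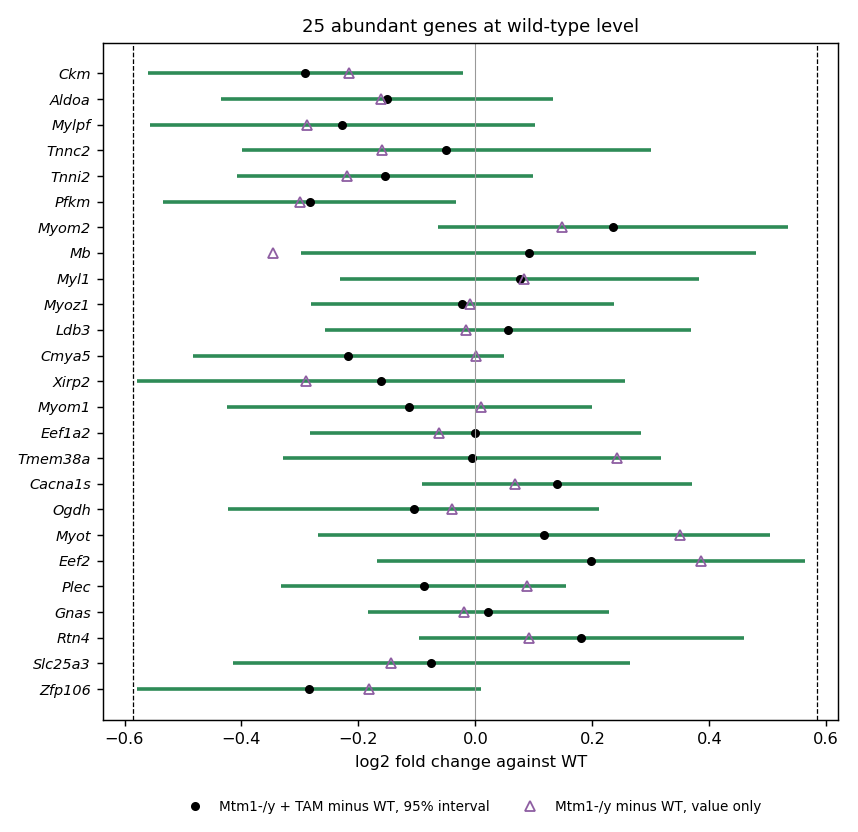
Log2 fold changes of 25 abundant genes at wild-type level in Mtm1-/y + TAM against WT, as points with 95% intervals, and of untreated mutants as open triangles, with dashed lines at 1.5-fold. Every interval lies between the lines by definition, and most include 0, with those of *Ckm* and *Pfkm* below it.

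*Lamb3* and *Cyfip2* set the treated mutants apart from both other groups and were called between treated and untreated mutants as well. *Lamb3*, a laminin chain of epithelial basement membranes, had 3.12, 2.29, 2.08 and 2.58 CPM in WT and 6.25, 7.78 and 8.53 CPM in treated mutants (1.57, SE 0.211, adjusted p = 0.000133). *Cyfip2*, a regulator of actin branching, had 1.13, 1.11, 1.11 and 0.675 CPM in WT and 18.4, 28.2 and 18.6 CPM in treated mutants (4.44, SE 0.505, adjusted p = 8.41e-05). Untreated mutants averaged 2.42 CPM for *Lamb3* and 1.76 CPM for *Cyfip2*, and their differences from WT were not called. The adjusted p between treated and untreated mutants was 0.0132 for *Lamb3* and 0.028 for *Cyfip2* (edgeR), and these were the 2 genes called in that comparison.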

How the data were processed

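Strand-specific libraries of polyadenylated RNA from tibialis anterior muscle, 15 in all, were sequenced. The authors deposited raw read counts per gene, not normalized, and the tools in the submitters' processing notes are STAR 2.5.3a, HTSeq 0.6.1p1, Bowtie2 2.2.8 and cutadapt 1.10, with mouse build GRCm38 (mm10). Genes that filterByExpr kept at a minimum count of 10 were fitted with edgeR 4.0.16 (TMM factors, robust quasi-likelihood test, 4 group means over all 15 libraries) and p-values were adjusted by the Benjamini-Hochberg method. CPM values use TMM-scaled library sizes. In the 7 libraries, 3 counts correspond to 0.0655 to 0.166 CPM, which limits what low genes can show. The fit was tested on simulated data. The members and gene lists were chosen with earlier results of these data known. Genes were named by a fixed rule: a list of key genes, the called genes with the 8 largest increases and 8 largest decreases where groups did not overlap and mean log2 CPM reached 1, the extreme called members and the most abundant wild-type-level member of each list, the 10 most abundant wild-type-level genes, and the 5 lowest p-values in each direction. Other genes of the lists were named after their values were seen, and some genes that the rule names are not reported here. Samples were grouped by their labels, and same-numbered WT and treated libraries did not deviate together (r = 0.079, -0.052 and -0.018). Alternatives were other scaling factors, filters, DESeq2 1.42.0, limma-voom (limma 3.58.1), a fit of the 7 libraries alone, a replicate block and leaving out libraries.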

Additional observations from a re-analysis of the deposited data

Results flagged for a closer look

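In 4 libraries of a group, a value was singled out when its gap to the nearest other value exceeded Dixon's 95% critical share of the whole range, which chance does for about 1 in 20 groups. This held for 12 of 334 groups of values tested. Among WT libraries, replicate 1 was high for *Mstn* (ratio of gap to range 0.844, 68.3 CPM against 48.9 to 52.0 CPM) and *Myl1* (0.903, 3274 against 2757 to 2807 CPM), and low for *Eda2r* (0.861, 6.4 against 10.3 to 10.9 CPM) and for the sum of the muscle atrophy list (0.899, 2041 against 2522 to 2576 CPM). Replicate 2 was high for *Pdha1* (0.886). Replicate 3 was high for *Psmb4* (0.901, 122 against 94.6 to 97.3 CPM) and *Tnfrsf23* (0.858). Replicate 4 was high for *Krt18* (0.858, 0.499 against 0.148 to 0.198 CPM) and low for *Dnm2* (0.899, 55 against 57.4 to 57.7 CPM) and *Cyfip2* (0.945, 0.675 against 1.11 to 1.13 CPM). Among untreated mutants, replicate 1 was high for *Sln* (0.96, 1750.0 against 303 to 361 CPM) and low for *Twnk* (0.844, 23.1 against 25.8 to 26.3 CPM).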

How the results depend on the processing

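The number of genes called between treated mutants and WT was 3615, and 5513 (2786 higher and 2727 lower) when the 7 libraries were fitted alone, 1215 when a change past 2-fold was also required, and 8117 genes lay at wild-type level when the interval was allowed within 2-fold in place of 5081. Leaving out single libraries gave 2190 to 4568 called genes (1172 to 2366 higher, 1018 to 2202 lower) and 4400 to 5255 genes at wild-type level, with the fewest calls without treated replicate 2, of which 2138 were shared with the 3615, and 1101 lower genes without treated replicate 3. Fewer samples enter these fits. In a setting chosen after seeing the data, without Mtm1-/y replicate 1 and WT + TAM replicate 1, 5280 genes were called (2698 higher and 2582 lower) and 5259 lay at wild-type level. No gene was called in opposite directions in the reported fit and in any of these alternatives. Upper-quartile factors changed the higher share of the called genes from 51.3% to 46.9%. RLE factors, upper-quartile factors, both filters, DESeq2 and limma-voom gave 2928 to 4128 called genes. With the replicate number as a block, 3303 genes were called, of which 3113 were among the 3615; the libraries share only a number, as the correlations of their deviations were 0.079, -0.052 and -0.018. Among the named genes and list medians, 75 alternative values lost a call, 52 gained one, and 23 medians moved beyond the spread between replicates. DESeq2 gave no adjusted p for *Sln*. The causes were not tested.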
